A study of Mus musculus with 3 samples.

Results

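Gene desert peaks are the TBX5-bound regions of embryonic mouse lung that lie far from any protein-coding gene. A peak was counted as one when its summit, the base of highest ChIP signal, lay outside every RefSeq protein-coding gene body and over 100 kb from the nearest end of such a gene. Summits within 1 kb of the end of a RefSeq long non-coding RNA (lncRNA) gene were left out. The rule found 4264 of the 28381 peaks in the deposited list, a share of 15% (exact 95% binomial interval 14.6 to 15.4%). It left out a further 194 peaks that met the distance rule but lay at a lncRNA gene end.

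The list came from chromatin immunoprecipitation and sequencing (ChIP-seq) of whole lungs of CD-1 mouse embryos, an outbred stock, at E14.5, with no genetic change or treatment. It stands for 2 TBX5 ChIP libraries, each from 1 whole lung, and 1 input library, and it holds no value for any single library. No spread between lungs could therefore be measured, the depth is unknown, and the intervals given here cover counting error only. All 3 titles name lung, while heart stands in the source field of the input and of ChIP library 2. A whole lung holds mesenchyme, epithelium, vessels, nerves and attached tissue, and cells of these kinds cannot be told apart in the list.

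TBX5 is a T-box transcription factor that binds DNA carrying a short element read as AGGTGT or a close variant, and it acts in the mesenchyme of the lung, in the heart and in the forelimb. Gene deserts are long stretches between protein-coding genes. Many lie beside genes for developmental transcription factors and signalling proteins, and some are known to hold enhancers that act on a promoter far along the chromosome. Distance alone does not tell which gene such a region acts on, so the genes on both sides of each desert are named here, the gene at the lower coordinate first.

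Few desert peaks lay in sequence that could be printed. Windows of 300 bases around RefSeq transcript starts held the summits of 5 desert peaks, each at an internal start of a lncRNA gene, and these sequences are shown because they are the bound desert DNA itself. Capitals mark AGGTGT or its reverse complement, a pattern chosen after the sequences had been seen. Each is given 5′ to 3′ on the strand of the lncRNA, from RefSeq on build GRCm38.p6, which is mm10.
Gm40261: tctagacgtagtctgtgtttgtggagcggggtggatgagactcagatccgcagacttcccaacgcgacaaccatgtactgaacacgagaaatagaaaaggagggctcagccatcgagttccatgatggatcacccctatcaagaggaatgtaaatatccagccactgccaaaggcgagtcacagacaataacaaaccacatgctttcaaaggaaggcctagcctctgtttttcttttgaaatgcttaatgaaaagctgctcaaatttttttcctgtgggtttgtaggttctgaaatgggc
9630002D21Rik: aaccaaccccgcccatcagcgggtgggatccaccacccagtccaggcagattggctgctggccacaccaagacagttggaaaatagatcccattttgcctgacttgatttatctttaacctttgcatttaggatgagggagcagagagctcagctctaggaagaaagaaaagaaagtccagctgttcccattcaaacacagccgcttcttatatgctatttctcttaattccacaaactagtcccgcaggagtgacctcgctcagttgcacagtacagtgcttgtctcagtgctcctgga
Gm41414: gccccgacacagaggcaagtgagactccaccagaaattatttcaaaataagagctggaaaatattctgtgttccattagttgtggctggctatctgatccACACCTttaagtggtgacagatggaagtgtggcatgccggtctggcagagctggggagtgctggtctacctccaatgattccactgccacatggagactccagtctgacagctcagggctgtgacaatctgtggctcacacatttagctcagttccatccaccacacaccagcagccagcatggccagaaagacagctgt
Gm41638: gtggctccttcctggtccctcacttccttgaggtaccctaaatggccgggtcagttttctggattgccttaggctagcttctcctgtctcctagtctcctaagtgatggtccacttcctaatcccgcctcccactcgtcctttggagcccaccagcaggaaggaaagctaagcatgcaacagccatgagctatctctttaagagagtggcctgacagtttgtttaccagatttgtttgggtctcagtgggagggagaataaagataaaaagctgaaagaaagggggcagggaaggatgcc
Gm35551: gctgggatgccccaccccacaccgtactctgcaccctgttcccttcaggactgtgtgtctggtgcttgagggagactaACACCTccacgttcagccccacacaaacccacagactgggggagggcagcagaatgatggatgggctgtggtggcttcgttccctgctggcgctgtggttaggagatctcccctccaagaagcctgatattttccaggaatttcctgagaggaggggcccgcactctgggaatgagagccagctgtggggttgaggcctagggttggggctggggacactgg
The window of Gm40261 lies at chr5:4312803-4313102 on the plus strand, between Mterf1b and Fzd1, a Wnt receptor gene, and its peak was 9.89-fold enriched. That of 9630002D21Rik lies at chr12:71613364-71613663 on the plus strand, between Dact1 and Daam1, whose products take part in Wnt signalling, and its peak was 7.83-fold enriched. That of Gm41414 lies at chr16:5431144-5431443 on the plus strand, between Eef2kmt and Rbfox1, a splicing factor gene, with 9.02-fold enrichment. Both windows on chromosome 17 lie between Haao and Zfp36l2, a gene for an RNA-binding protein that shortens mRNA life. They are Gm41638 at chr17:83959533-83959832 and Gm35551 at chr17:84044537-84044836, both on the minus strand, with 6.12-fold and 12.5-fold enrichment. The pattern was present in the windows of Gm41414, from base 101, and Gm35551, from base 79, each time on the opposite strand, and the other 3 windows held no match. Read on both strands, AGGTGT was present in 13.7% of all 32851 promoter windows in the table, in 12.0% of the 2865 windows that held a TBX5 summit, and in 18.9% of the 244 that held a strong summit, as defined next. The longer forms AGGTGTGA and GGTGTGA, which overlap it, were in none of the windows shown, against 1.28% and 3.98% of all windows. A match is a description of the letters, and its absence from a window says nothing about binding.

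Desert peaks were as tall as peaks elsewhere or taller. The fold enrichment of a peak is the ratio of ChIP signal to background at its summit, a value of the authors' caller. In deserts its median was 6.85 (95% interval 6.60 to 7.07), with quartiles of 5.18 and 10.6 and a range from 2.88 to 93.3. The peaks of the list outside the deserts had a median of 6.19 (6.14 to 6.24). By class, the median was 6.59 for peaks inside protein-coding genes, 6.60 for intergenic peaks 1 to 100 kb from a gene end, and 5.49 for peaks within 1 kb of a gene end. Widths differed little, with a median of 295 bp in deserts and 290 bp elsewhere.

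Strong peaks were those with the 5000 highest −log10 q values, where q is the peak caller's corrected p-value. They made up 918 of the 4264 desert peaks, or 21.5% (20.3 to 22.8%), against a background of 17.6% of all peaks and 16.9% (16.5 to 17.4%) of the peaks outside deserts. At gene ends the share was 8.21%, inside genes 19.3%, and between genes up to 100 kb away 18.9%. Among the 194 peaks left out at lncRNA gene ends, also over 100 kb from protein-coding genes, it was 22.2% (16.5 to 28.7%). At least 10-fold enrichment was reached by 1148 desert peaks, or 26.9%, against 21.2% of all peaks. At least 50-fold was reached by 15 of the 4264 desert peaks and by 81 of all 28381 peaks. Desert peaks took 4 of the 10 highest places by −log10 q (12.2 to 73.8%) and 17 of the highest 100 (10.2 to 25.8%). Both intervals take in the share of 15% that desert peaks had in the whole list. They took 200 of the highest 1000, and the interval there (17.6 to 22.6%) lies above that share. By −log10 q, desert peaks were 18% of the 2838 strongest and 13.5% of the 2839 weakest.

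The fold values fell on a grid, and more so in deserts. A step of 0.471 divided the fold of 2423 desert peaks (56.8%) into whole multiples, with a tolerance of 0.002 steps, against 30.3% of the other peaks and 7.73% of peaks at gene ends. MACS2, the caller named in the submitters' processing notes, divides by the greatest of several background estimates, so that folds over 1 shared background can be whole multiples of a step. Among peaks on the grid alone, the median fold was 7.07 (6.60 to 7.07) in deserts and 6.60 elsewhere, and the strong share was 19.8% (18.2 to 21.5%) in deserts and 17.8% (17.0 to 18.7%) elsewhere. These intervals overlap or touch, unlike those over all peaks. Among peaks off the grid, the median fold was 6.67 in deserts and 6.04 elsewhere, and the strong share was 23.8% and 16.5%. The part of the background estimate in the difference of strength was not tested further.

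**Figure D1:**
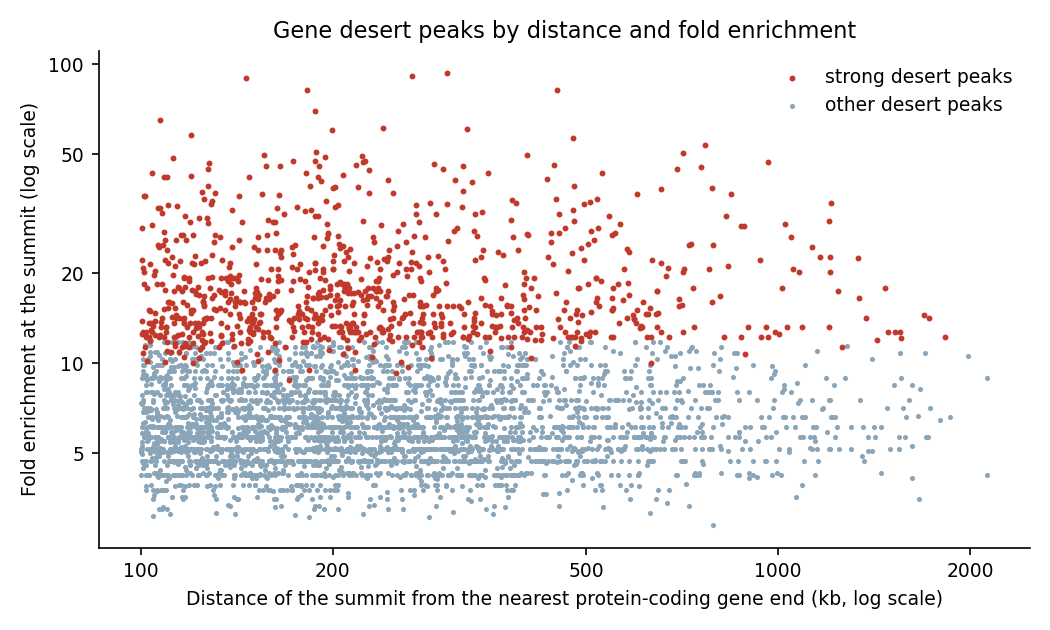
Each point is a gene desert peak (4264), by the distance of its summit from the nearest protein-coding gene end in kb and by its fold enrichment, both on log scales, with the 918 strong peaks in red. Peaks of over 50-fold occur from 107 to 766 kb from a gene, and horizontal rows of points are the steps of the fold values.

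The distance of the summit from the nearest protein-coding gene end had a median of 217 kb, with quartiles of 147 and 354 kb. There were 583 desert peaks (13.7%) over 500 kb from any gene, 122 over 1 Mb and 2 over 2 Mb. Enrichment showed no decline along this range, as the plot of fold against distance shows. From 100 to 150 kb the 1125 peaks had a median fold of 6.89 and 22.6% were strong. From 300 to 500 kb the 819 peaks had a median of 6.60 and 18.4% were strong. Beyond 1 Mb the 122 peaks had a median of 6.86 and 23.8% were strong (16.5 to 32.3%), so that this interval takes in the shares at both shorter distances.

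The distance of 100 kb marked no break. The 5 members just over it had folds of 7.37, 5.18, 4.24, 5.07 and 5.30, at 100.04 to 100.23 kb. The 5 intergenic peaks just under it had folds of 7.02, 6.60, 7.06, 8.95 and 16.5, at 99.86 to 99.92 kb. Between 100 and 110 kb there were 292 members with a median fold of 6.89, and between 90 and 100 kb 335 peaks with a median of 7.05. Strong peaks were 21.6% of the former and 22.4% of the latter.

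Peaks became sparser with distance while their enrichment did not fall. Sequence over 100 kb from genes held 6.04 peaks per Mb (5.86 to 6.22), peaks at lncRNA ends included, against 12.8 per Mb (12.7 to 13.0) in the rest of the genome. It made up 28.4% of the sequence between the first and last gene of each chromosome and held 15.7% of its peaks. From 100 to 200 kb the density was 9.03 per Mb, and its interval (8.64 to 9.43) overlaps those of the bins from 10 to 50 kb, at 9.25, and from 50 to 100 kb, at 9.49. The density was 7.55 per Mb from 200 to 300 kb, 5.58 from 300 to 500 kb, 3.05 from 500 to 1000 kb and 1.66 (1.38 to 1.98) beyond. For strong peaks the density was 2.0 per Mb from 100 to 200 kb, against 1.86 from 50 to 100 kb, and 0.392 beyond 1 Mb. Peaks lie in chains and are not independent of each other, so these Poisson intervals are too narrow.

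**Figure D2:**
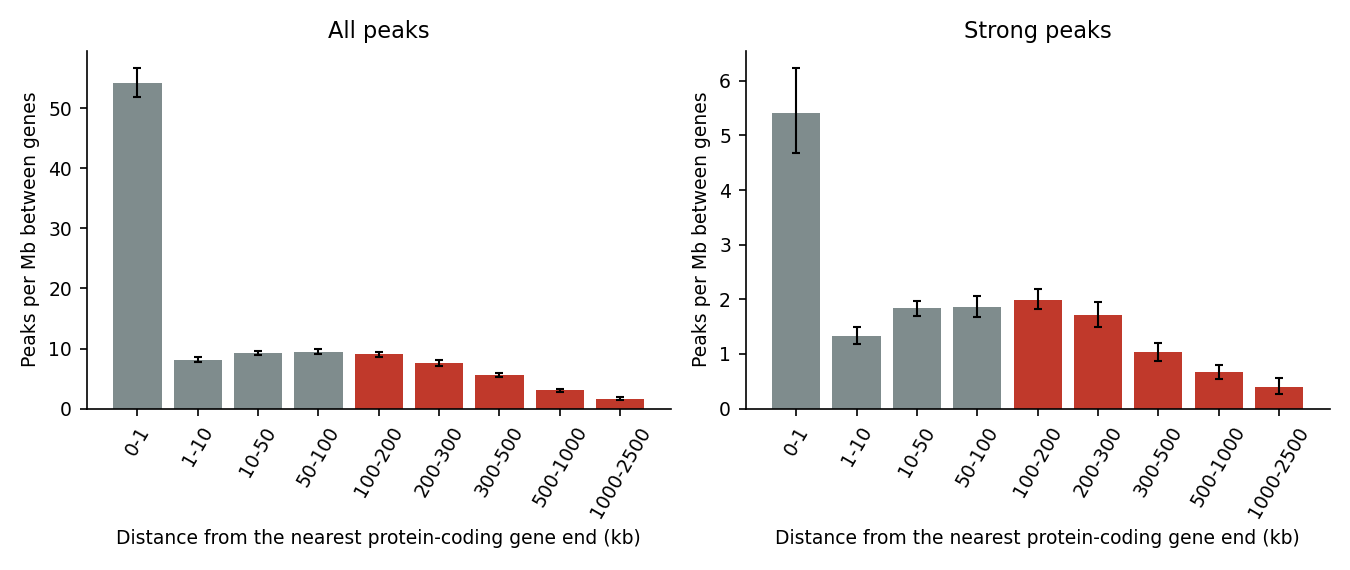
Bars give the peaks per Mb of sequence between genes by distance from the nearest protein-coding gene end in kb, for all peaks (left) and strong peaks (right), with exact 95% Poisson intervals, and with distances over 100 kb in red. Density is highest within 1 kb of a gene end, at 54.2 per Mb, nearly level from 10 to 200 kb, and 1.66 per Mb beyond 1 Mb.

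Desert peaks were less often close to another summit than peaks elsewhere. Another summit of any class lay within 10 kb of 1845 desert peaks, or 43.3% (41.8 to 44.8%), against 50.1% of all peaks and 51.4% (50.7 to 52.0%) of those outside deserts. By class, the share was 44.6% (43.3 to 46.0%) at gene ends, 53.3% inside genes and 52.8% between genes up to 100 kb away. Among desert peaks it was 47.6% from 100 to 150 kb and 21.3% beyond 1 Mb. Counting only desert peaks, 2492 stood alone, 530 pairs held 1060 peaks, and 199 chains of 3 or more held 712. Strong peaks were 18.6% of those alone (17.1 to 20.2%), 24.6% of those in pairs (22.1 to 27.3%) and 27.1% of those in longer chains (23.9 to 30.5%). Of the 729 chains and pairs, 374 held no strong peak, 269 held 1 and 86 held 2 or more. The 5 largest chains lay between Gm44812 and Mctp2 (8 summits over 43.0 kb, 3 of them strong), Npvf and Gm38821 (8 over 19 kb, none strong), Map3k1 and Ankrd55 (7 over 33.7 kb, 3 strong), Exoc2 and Foxq1 (7 over 37.7 kb, 1 strong), and Foxl1 and 1700018B08Rik (7 over 15.9 kb, 1 strong). A chain between Enc1 and Arhgef28 also held 7 summits.

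A desert was taken as a stretch of over 200 kb between protein-coding gene bodies, so that part of it lies over 100 kb from both. There were 1537, with a median length of 421 kb and 2598 different flanking genes. A desert peak was present in 847 of them, 55.1%, and a strong one in 432, 28.1%. Of the 4264 peaks, 2 lay between the last gene and the end of a chromosome and so had a gene on one side only. Members were unevenly spread: 230 deserts held a single peak, while the 125 deserts with 10 or more held 1980, which is 46.4% of all, and 142 deserts were enough to hold 50%.

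Longer deserts held a peak more often, but at a lower density. The share with a desert peak was 32.1% of the 480 deserts from 200 to 300 kb, 70.1% of the 374 from 500 to 1000 kb and 84.3% of the 83 over 2 Mb. Per Mb of sequence over 100 kb from genes, desert peaks numbered 13.4 in the shortest of these classes, 8.92 in the middle one and 2.32 in the longest. The scatter of peaks against length shows both kinds of long desert, with many peaks and with few.

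**Figure D3:**
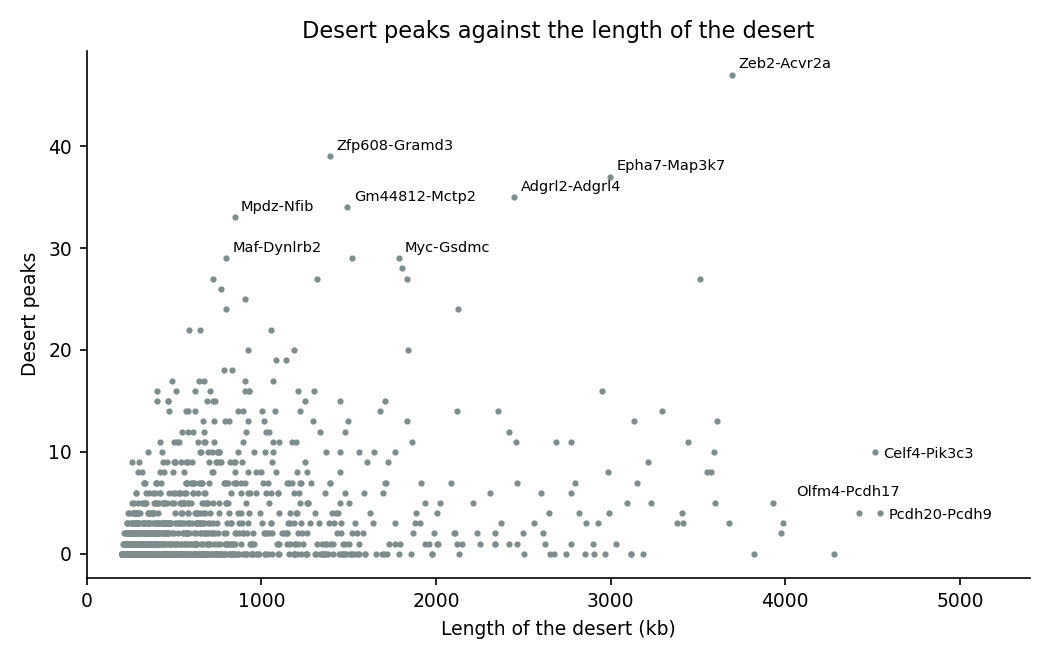
Each point is 1 of the 1537 deserts, by its length in kb and the number of desert peaks it holds, with the 8 deserts of most peaks and the 3 longest with a peak named. The Zeb2-Acvr2a desert holds 47 peaks over 3697 kb, while the longest desert, Pcdh20-Pcdh9, holds 4.

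The highest desert peaks stood beside transcription factor and signalling genes as well as beside genes of general cell function. The highest by −log10 q, second in the whole list, was 93.3-fold enriched at chr4:81744456-81745415, between Mpdz, which encodes a scaffold protein of cell junctions, and Nfib, a nuclear factor I gene needed for lung maturation. It lay 302 kb from Mpdz and 545 kb from Nfib, inside the lncRNA gene Gm11412. The same desert held 33 desert peaks, 6 of them strong, of which the next highest was 31.6-fold enriched and 290 kb from Nfib. On the other side of Nfib, the 292 kb stretch to Zdhhc21, with 92 kb over 100 kb from genes, held 1 desert peak, at 5.90-fold.

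Between Dusp10, a phosphatase gene for stress-activated MAP kinases, and Hlx, a homeobox gene of visceral mesenchyme, a peak at chr1:184221762-184222412 was 90.2-fold enriched. It lay 146 kb from Dusp10 and 505 kb from Hlx, and the transcripts of both genes end towards this desert. A further 21 desert peaks shared the stretch, the highest of them 44.3-fold enriched, 424 kb from Dusp10 and 228 kb from Hlx. Of all 22, 16 lay nearer to Hlx and 6 nearer to Dusp10.

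Osr1, a zinc-finger factor gene of the mesoderm that also acts in early lung formation, had deserts on both sides. On the side of Nt5c1b, a nucleotidase gene, a peak of 1577 bp at chr12:9847024-9848600, the widest of all desert peaks, was 91.4-fold enriched and lay 266 kb from Osr1. A second, 45.7-fold enriched, lay 321 kb from it, and there were 18 desert peaks in the stretch. On the side of Ttc32 there were 9, the highest 23.1-fold enriched.

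Phlda1, a gene induced by growth factors, and Krr1, a ribosome assembly gene, flank a desert of 464 kb with 15 desert peaks, of which 9 were strong. The highest, at chr10:111695878-111696866, was 69.8-fold enriched and lay 188 kb from Phlda1 and 276 kb from Krr1, inside the lncRNA gene Gm30624. The median fold of these 15 was 12.1, against 6.85 over all desert peaks.

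Ednra, the endothelin A receptor gene of smooth muscle and mesenchyme, and Ttc29, a gene for a protein of sperm tails, flank 489 kb with 17 desert peaks. The highest, at chr8:77973605-77974290, was 61.2-fold enriched and stood midway, 249 kb from Ednra and 239 kb from Ttc29. Another at 47.6-fold lay 264 kb from Ednra. A chain of 5 peaks began 101 kb from Ednra, with a highest fold of 17.4.

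Cdh11, a cadherin gene of mesenchymal cells, and Cdh5, which encodes VE-cadherin of endothelial cells, share a desert of 1316 kb with 27 desert peaks, 9 of them strong. The highest was 82.0-fold enriched at chr8:103234271-103234862, 449 kb from Cdh11 and 867 kb from Cdh5. By nearest gene, 13 lay closer to Cdh11 and 14 closer to Cdh5.

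Meis1, a TALE homeodomain factor gene, had 20 desert peaks towards Etaa1, a DNA replication stress gene, and 16 towards Spred2, an inhibitor gene of Ras and MAP kinase signalling. The highest, at chr11:18278539-18279275, was 60.8-fold enriched, and lay 325 kb from Etaa1 and 602 kb from Meis1. One of 44.8-fold stood nearer, 298 kb from Meis1. Towards Spred2 the highest was 27.7-fold enriched.

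The other 3 of the 10 highest desert peaks stood beside genes of cilia, ubiquitin conjugation, junctions and ribosomes. Between Efcab1, a gene of ciliated cells, and Ube2v2, a ubiquitin conjugation gene, a peak of 81.9-fold lay at chr16:15367990-15369174, 399 kb from Efcab1 and 183 kb from Ube2v2. Between Cldn23, a claudin gene, and Prag1, a gene for a pseudokinase scaffold, 1 of 65.0-fold lay at chr8:35987188-35988191. Between Sdk2, a gene for a neural adhesion molecule, and Rpl38, a ribosomal protein gene, 1 of 60.1-fold lay at chr11:114467660-114468700, and the next highest of the 9 desert peaks there was 8.66-fold enriched. The Sdk2 desert therefore held a single strong peak, while the Efcab1 desert held 5 and the Cldn23 desert 2.

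**Figure D4:**
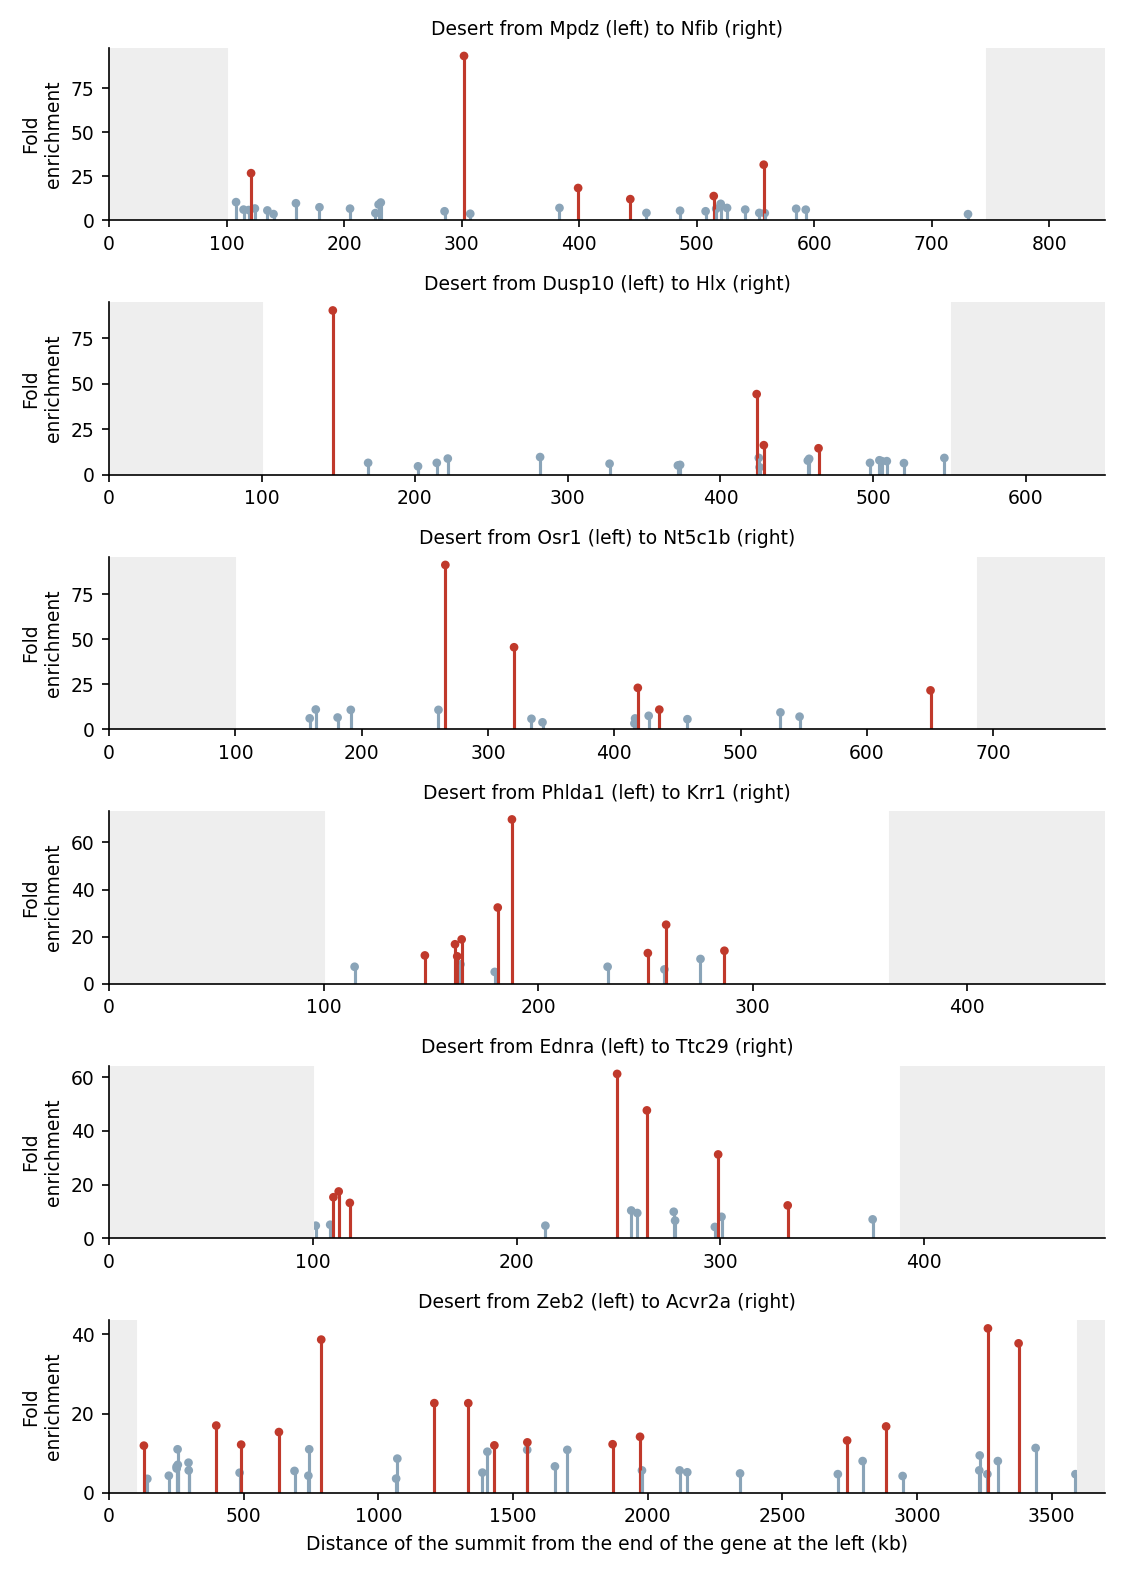
Each panel is 1 desert drawn to its own scale, with a stem for each desert peak at its distance in kb from the end of the gene at the left, the stem height giving the fold enrichment, strong peaks in red, and the 100 kb beside each gene shaded since no member can lie there. The 93.3-fold peak between Mpdz and Nfib stands among peaks of up to 31.6-fold, and the 47 peaks between Zeb2 and Acvr2a reach from 129 kb after Zeb2 to 109 kb before Acvr2a.

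The deserts with the most peaks were long ones. Zeb2, a zinc-finger factor gene of neural crest and mesenchyme, and Acvr2a, an activin receptor gene, flank 3697 kb with 47 desert peaks, of which 15 were strong. The highest was 41.5-fold enriched, 434 kb from Acvr2a, and one of 38.6-fold lay 787 kb from Zeb2. Both genes face the desert with their starts. Zfp608 and Gramd3 flank 39 peaks, of which 27 lay nearer to Zfp608. Epha7, an ephrin receptor gene, and Map3k7, the kinase gene of TGF-beta and inflammatory signalling, flank 37, of which the highest was 38.8-fold enriched and 219 kb from Map3k7. Adgrl2 and Adgrl4, both adhesion G-protein-coupled receptor genes, flank 35, of which 13 lay inside lncRNA genes.

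Next in number were deserts of 28 to 34 peaks. Between Gm44812 and Mctp2, a gene for a calcium-binding membrane protein, 34 peaks reached 50.6-fold. The desert of Maf, a leucine zipper factor gene, and Dynlrb2, a dynein gene, held 29 in 798 kb, or 48.5 per Mb over 100 kb from genes. That of Myc, a growth regulator gene, and Gsdmc, a gene for a pore-forming protein, also held 29, of which 20 lay nearer to Gsdmc and the highest, 30.6-fold enriched, lay 1658 kb from Myc. Fat4, a giant protocadherin gene, and Intu, a planar polarity gene, flank 29 as well. Slc4a3, an anion exchanger gene, and Epha4 flank 28, with a highest fold of 20.3.

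Of the 5 farthest members, 4 lay in deserts flanked by a gene of the neural adhesion list, as did 4 of the 10 farthest. The most remote lay 2129.9 kb from Pcdh17, a protocadherin gene, and 2291 kb from Olfm4, with 8.95-fold enrichment. The next lay between Pcdh20 and Pcdh9, 2124 kb from Pcdh9, with 4.24-fold. A peak of 10.6-fold between Tenm3, a teneurin gene, and Aga, a lysosomal enzyme gene, was 1988 kb from Aga. One between Lrrc4c, a synaptic adhesion gene, and Iftap was 1858 kb from Iftap, with 6.60-fold. The fifth, strong at 12.3-fold, lay in the Zeb2 desert, 1827 kb from Acvr2a.

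Deserts of this length differed widely in their number of peaks. The 5 longest with a member were those of Pcdh20 and Pcdh9 (4542 kb, 4 peaks), Celf4 and Pik3c3 (4511 kb, 10 peaks), Olfm4 and Pcdh17 (4420.4 kb, 4 peaks), Tenm3 and Aga (3989 kb, 3 peaks), and Slc39a10 and Tmeff2 (3975 kb, 2 peaks). The 5 longest without were those of Cntnap5b and Cdh20 (4278 kb), Dsel and Cntnap5a (3819.7 kb), LOC115489384 and Rab10 (3185 kb), Diaph2 and Pcdh19 on chromosome X (3117 kb), and LOC115489419 and Selenop (3115 kb). Of each 5, 3 were flanked by a gene of the neural adhesion list, as were 36.1% of all deserts over 2000 kb and 5.86% of all deserts. Those of Rab10 and Selenop begin in the first 3 Mb of their chromosomes. There were 18 such deserts, which held 1 member in 28.0 Mb over 100 kb from genes, and they were 6 of the 10 longest empty ones. Gaps in the assembly were not marked in the table, so sequence that could hold no peak was not taken out. Nor was it checked that the genes at the start of these 18 deserts lie on the assembled chromosome. Some of the 18 may therefore not be true deserts, and all are counted among the 1537 and in the densities over all deserts.

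Lists of genes by role were set beside the deserts they flank, and a desert between genes of different lists counts in each. Over all 1537 deserts, 55.1% held a desert peak, the median was 1 peak, and there were 5.78 desert peaks per Mb of sequence over 100 kb from genes (5.60 to 5.95). Genes of the lung mesenchyme flank 41 deserts, of which 34 (82.9%) held a desert peak and 29 (70.7%) a strong one, with a median of 5 peaks and 16.0 per Mb (14.3 to 17.9). The 3 with the most peaks were those of Zeb2 and Acvr2a, of Med13l and Tbx3, a T-box gene of the lung mesenchyme, with 25, and of Lcorl and Slit2, a guidance ligand gene, with 24. These deserts were of near-average length, with a median of 436 kb against 421 kb over all.

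Transcription factor genes known for control from afar flank 133 deserts, of which 98 (73.7%) held a desert peak, with a median of 3 and 10.4 per Mb (9.69 to 11.2). The most were in those of Zeb2 and Nfib, followed by those of Maf and Myc with 29 each, all described above. Genes of signalling ligands and antagonists flank 63, of which 45 (71.4%) held one, with a median of 2 and 11.1 per Mb. Behind the Dusp10 desert came that of Jag1, a Notch ligand gene, and Btbd3, with 19 peaks, and that of Meis1 and Spred2. Axon guidance genes, whose products also steer vessels and mesenchyme, flank 35, of which 29 (82.9%) held one, with a median of 3 and 7.64 per Mb. The highest counts there were those of Epha7, of Epha4, and of Efnb2, an ephrin ligand gene, and Slc10a2, with 27.

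Neural adhesion genes flank 90 deserts with a median length of 1199 kb, of which 59 (65.6%) held a desert peak, with a median of 1.5 and 2.36 per Mb (2.10 to 2.64). The 3 with the most were those of Cdh11 and Cdh5, of Pcdh17 and Diaph3, with 14, and of Pabpc4l and Pcdh18, with 14. The first counts here through Cdh11, described above as a gene of mesenchymal cells, and without it the density was 2.17 per Mb (1.92 to 2.44). Olfactory and vomeronasal receptor genes flank 20 deserts, of which 3 (15%) held a desert peak, with a median of 0 and 1.51 per Mb (0.653 to 2.98). These 3 lay between Olfr1505 and Tle4, with 6 peaks, Lpar1 and Olfr267, with 1, and Olfr1324 and Stk26, with 1, and without the first of them the density was 0.403 per Mb.

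Length differed between the lists, and the values by length stand beside the pooled ones. Among deserts of 200 to 500 kb, those of lung mesenchyme genes had 26.5 desert peaks per Mb (20.7 to 33.6), those of the transcription factors 11.7 (8.94 to 15.1), those of neural adhesion genes 4.45 (2.22 to 7.96), and all deserts 10.2 (9.54 to 10.8). Among deserts of 500 to 1000 kb, those of lung mesenchyme genes had 19.7 desert peaks per Mb, those of the transcription factors 15.5, those of neural adhesion genes 2.65, and all deserts 8.92. Among deserts over 1000 kb, the densities were 10.6 for lung mesenchyme genes, 7.07 for the transcription factors, 2.28 for neural adhesion genes and 3.56 for all deserts. The intervals of the lung mesenchyme list lay above those of all deserts, and those of the neural adhesion list below, in all 3 classes. Those of the transcription factor list lay above in the longer classes and overlapped in the shortest. The lists were chosen with earlier results of these data known, and their deserts are also among all deserts. The intervals treat peaks in chains as independent and are too narrow, so these comparisons describe the lists and test nothing.

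Lists for the other cells that a whole lung, or the heart named in the source field, could hold were short. Heart genes flank 17 deserts, of which 14 (82.4%) held a desert peak and 6 (35.3%) a strong one, with 9.23 per Mb (7.33 to 11.5). Among them, Gata6, also an endoderm factor gene, had 12 with Rbbp8, and Hand2 had 11 with Fbxo8. Lung epithelium genes flank 11, of which 7 held one and 3 a strong one, with 7.24 per Mb (5.07 to 10.0). The highest count was beside Sox9, a factor gene of the branching tips and of cartilage, with 22 of the 36 peaks towards Gm11677, and without that desert the density was 3.40 per Mb (1.86 to 5.71). It was followed by Sox2 towards Atp11b with 4 and Foxa2 towards Sstr4 with 3. Endothelial genes flank 8, of which 7 held one and 5 a strong one, with 10.9 per Mb (8.16 to 14.3). They were led by Cdh5 with 27, without whose desert the density was 6.94 per Mb (4.53 to 10.2), then Nr2f2 with 9 towards Arrdc4 and Ets1 with 9 towards Kirrel3. The part of heart tissue in these counts was not tested.

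**Figure D5:**
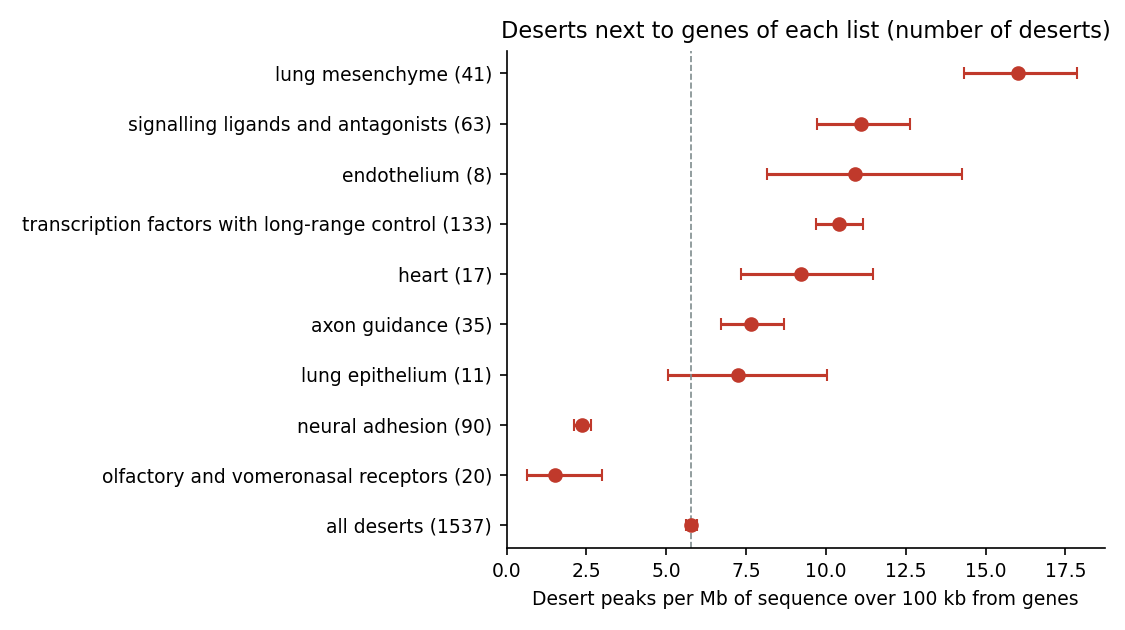
Points give the desert peaks per Mb of sequence over 100 kb from genes, for the deserts next to genes of each list, with exact 95% Poisson intervals, and the dashed line marks the value over all 1537 deserts. Deserts beside lung mesenchyme genes have 16.0 per Mb, those beside neural adhesion genes 2.36 and those beside olfactory and vomeronasal receptor genes 1.51, against 5.78 over all deserts.

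A set of developmental genes that flank deserts was followed by name. Sox9 had 22 desert peaks towards Gm11677 and 3 towards Slc39a11. Of the 22, 15 lay nearer to Gm11677, and the highest, 39.3-fold enriched, was 577 kb from Sox9 and 479 kb from Gm11677. Foxf1, the forkhead gene of lung mesenchyme and vessels, had 7 in its desert with Irf8, 3 of them strong. The highest, 19.8-fold enriched, lay 185 kb from Foxf1 and 143 kb from Irf8. Tbx3 had 25 towards Med13l, the highest 18.4-fold enriched and 203 kb from Tbx3. Fgf10, the ligand gene of airway branching, had 3 towards Nnt and none towards Mrps30. The highest, 26.9-fold enriched, lay 385 kb from Fgf10 and 158 kb from Nnt. Wnt5a had 3 towards Cacna2d3, of which 1 was strong at 11.9-fold. Among these 5 genes the count on the richer side ran from 3 to 25.

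Bmp2 had 6 desert peaks towards Fermt1 and 6 towards Hao1. The highest towards Fermt1, 29.2-fold enriched, lay 196 kb from Fermt1 and 410 kb from Bmp2. Towards Hao1 the highest, 10.4-fold enriched, lay 353 kb from Bmp2 and 581 kb from Hao1. Among factors shared with the heart, Gata6 had 12 towards Rbbp8 and 1 towards Mib1. The highest of the 12, 33.0-fold enriched, lay 384 kb from Gata6 and 163 kb from Rbbp8. Tbx20 had 2 towards Herpud2, Tbx18 had 7 towards Nt5e and 3 towards Cep162, and Zfpm2, the gene of a GATA cofactor, had 4 towards 9330182O14Rik and none towards Oxr1. Among nuclear receptor and homeobox genes, Nr2f1 had 11 towards Arrdc3, the highest 27.3-fold enriched and 440 kb from Nr2f1. Nr2f2 had 9 towards Arrdc4, of which 8 lay nearer to Arrdc4. The highest of the 9, 27.1-fold enriched, lay 1406 kb from Nr2f2 and 197 kb from Arrdc4. Irx3 and Irx5 share a desert with 3, of which 2 were strong, and the stretch from Irx5 to Irx6 held none. Meis2 had 1 towards Tmco5, where 611 kb lay over 100 kb from genes. Meis1 had 36 towards Etaa1 and Spred2 together, where 727 and 705 kb did. Sox2 had 4 towards Atp11b and 2 towards Dnajc19, the highest of these 17.6-fold enriched. Nfib, Osr1, Dusp10 and Meis1, also of the set, are described above.

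The promoters of flanking genes were more often bound where the desert held peaks. Over all 17274 protein-coding genes with a listed promoter, 19.1% had a peak of the list over the promoter. This is a wider count than that of summits inside the 300-base windows. The shares were not split by chromosome. On X, where peaks of every class were sparse, 21 of 144 deserts held a desert peak, against 826 of 1393 on the autosomes. Among genes beside a desert the share was 14.3% (12.0 to 16.8%) of 834 with no desert peak beside them, 22.5% (19.4 to 25.8%) of 677 with 1 to 4, 30.6% (25.3 to 36.4%) of 281 with 5 to 9, 30.1% of 146 with 10 to 19, and 30% of 40 with 20 or more. Of the genes with the most desert peaks, Meis1 had an 18.1-fold peak over its promoter, Zeb2 1 of 6.85-fold, Acvr2a 1 of 5.22-fold and Map3k7 1 of 6.24-fold. Adgrl2, with 62 desert peaks on both sides together, Mctp2 with 45 and Epha7 with 44 had none.

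Desert peaks were spread over both sides of genes. Where the strand of the nearest gene was at hand, 1639 (52.0%) faced its start and 1511 (48.0%) its end. Per Mb of such sequence there were 5.57 on the side of starts and 5.73 on the side of ends, with overlapping intervals. Strong peaks made up 22.4% (20.4 to 24.5%) on the side of starts and 18.8% (16.9 to 20.9%) on the side of ends.

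Some desert peaks lay in or near lncRNA genes. Summits of 713 (16.7%) lay inside 406 lncRNA genes, and lncRNA genes in all covered 9.30% of the desert sequence that could hold a member. Within 50 kb of a lncRNA gene end lay 2077 (48.7%), against 26.8% of that sequence. Those inside had a median fold of 6.60 and 19.6% were strong, against 6.94 and 21.9% of the 3529 inside no lncRNA gene, pseudogene or miRNA gene. The lncRNA gene with the most was 2610307P16Rik, which lies between Prl5a1 and Sox4, a Sox factor gene of many embryonic tissues, with 21 peaks, 4 of them strong.

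Hairpins of microRNAs, short RNAs that lower the levels of target mRNAs, stood within 10 kb of a desert peak in 6 deserts, 17 hairpins of the 1005 in the RefSeq table. One desert, between Ubash3b and Gm40514, is the home of the Mir100 and Mirlet7a-2 cluster and had 10 desert peaks, the highest 22.0-fold enriched. Mir100 had 3 desert peaks within 10 kb, none strong and the highest 9.42-fold enriched, and Mirlet7a-2 had 1, at 5.49-fold and 1.93 kb away. The mature miR-100-5p, at chr9:41531437-41531458 on the plus strand, is shown because it identifies the RNA made there, with its seed, bases 2 to 8, in capitals.
miR-100-5p: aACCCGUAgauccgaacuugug
A further 9 of the 17 hairpins belong to the imprinted cluster between Rtl1 and Dio3, where the nearest desert peak was 5.26-fold enriched for each.

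Chromosome X held few desert peaks, as it held few peaks of any class. It had 54, or 0.930 per Mb over 100 kb from genes (0.698 to 1.21), against 6.19 (6.01 to 6.38) on the autosomes. Peaks outside deserts numbered 3.21 per Mb on X and 13.6 on the autosomes, so that desert peaks were 13.0% of the peaks on X and 15.1% of those on the autosomes. Of the 144 deserts on X, 21 (14.6%) held a desert peak, against 826 of the 1393 autosomal ones (59.3%). Among autosomes the density ran from 4.11 per Mb on chromosome 17 to 8.68 on chromosome 13.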

How the data were processed

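The data were 1 deposited peak list in the layout that MACS2 writes, standing for 2 TBX5 ChIP libraries and 1 input library of E14.5 lung. Per the submitters' processing notes, the tools were Bowtie2, SAMtools and MACS2 on build mm10. Versions, settings, any merging of libraries before calling and the control were not given in the sources used here. For each peak the authors deposited a fold enrichment (a ratio), the −log10 of a q-value, a score and the offset of the summit. They serve here to describe and rank peaks of this list alone. The total depth is unknown. Starts are printed 1-based.

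Summits were placed against 21631 protein-coding and 12697 lncRNA genes of a RefSeq table of GRCm38.p6, the assembly of mm10, which gives gene starts and ends without exons. Strand came from the RefSeq promoter table where it lists the gene. No test between groups was run, since peaks of 1 list are not replicates of a condition. Shares carry exact 95% binomial intervals, densities exact 95% Poisson intervals, and medians order-statistic intervals. The placing of summits and deserts was tested on simulated gene positions. Values were computed with Python 3.11.15, pandas 2.3.3, NumPy 2.4.6 and SciPy 1.17.1. The motif search planned for all summits was run only on promoter windows, since no genome was used here.

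The members and gene lists were chosen with earlier results of these data known. Named were the genes flanking the 10 highest desert peaks by −log10 q, the 10 deserts with the most desert peaks, the 5 farthest desert peaks, the 5 longest deserts with and the 5 longest without one, the 5 largest chains, and the 3 richest deserts of each list. A further 22 developmental genes were followed, of which 2, with their deserts, are not reported here, and genes beside the sequences shown, promoter peaks and miRNAs were added. Alternatives were other distances, strength thresholds, windows, chromosomes and peak subsets. Of these, 4 kinds were chosen after seeing the data. They were the fold grid for the median fold, the fold grid for the strong share, autosomes only for the density, and each list without its richest desert. The last kind gives a value for every list, so more than 4 of the 51 alternative values were chosen in this way.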

Additional observations from a re-analysis of the deposited data

How the results depend on the processing

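No paired analysis was possible because the list holds no value for any single library, and for the same reason no library could be left out. Of 51 alternative values, 22 stayed within the interval or 1.5 times of the value reported and 29 moved, each setting counting other peaks, windows or sequence. The number of desert peaks was 2364 at 200 kb, 583 at 500 kb, 1420 with lncRNA genes also over 100 kb away, and 2251 among the 50% of peaks with the highest −log10 q. In that 50% the median fold was 10.2 and the density 3.19 per Mb. The share of strong desert peaks was 4.69% for the 1000 highest by −log10 q, 52.8% for the highest 50%, 23.0% for the 5000 highest by fold, 26.9% at 10-fold or more, and 19.8% on the fold grid, an alternative chosen after seeing the data. The shares outside deserts were 3.32%, 49.5%, 16.7%, 20.2% and 17.8%, lower under each. Another summit lay within 5 kb for 31.5% of desert peaks, within 20 kb for 56.4%, within 50 kb for 75.8%, and within 10 kb among desert peaks only for 41.6%. Outside deserts the first 3 were 39.1%, 64.7% and 83.2%, higher under each. The density was 7.49 per Mb without stretches that hold no peak and 6.47 on autosomes only, added later. Deserts with a peak numbered 1275 of 2768 at 50 kb, 475 of 809 at 200 kb and 146 of 281 at 500 kb. Counting strong peaks only, the share of deserts holding one was 46.6% for the transcription factor list, 42.9% for signalling, 48.6% for axon guidance, 32.2% for neural adhesion, 35.3% for heart and 27.3% for lung epithelium, against 28.1% of all deserts. Without the desert of each list that held the most desert peaks, also added later, the density was 3.40 per Mb for lung epithelium, 6.94 for endothelium and 0.403 for the olfactory receptors, and stayed within the interval for the other 6 lists. The unknown depth limits what a missing peak in a desert can show.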

Other observations

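Among deserts with at least 5 desert peaks and at least 200 kb of sequence over 100 kb from genes, limits set after the values were seen, the densest was that of Foxl1, a forkhead gene of gut and lung mesenchyme, and 1700018B08Rik. It held 16 desert peaks in 400.1 kb, 79.9 per Mb over 100 kb from genes, of which 3 were strong and the highest was 13.95-fold enriched. Next came the desert of Ccdc171 and Bnc2, a zinc-finger gene of fibroblasts, with 15 peaks and 74.8 per Mb, and that of Ednra and Ttc29, with 58.9. The desert of Myocd, the master regulator gene of smooth muscle, and Map2k4 held 11 desert peaks, 5 of them strong, at 50.4 per Mb.

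Deserts were also sorted by the strand of their flanking genes where both were at hand. Those between 2 gene starts held 5.64 desert peaks per Mb (264 deserts), those between 2 gene ends 6.42 (197 deserts), and those between a start and an end 5.15 (526 deserts).

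There were 409 deserts with no peak of any class in the whole stretch, and they covered 143 Mb over 100 kb from genes.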
